A study of Mus musculus with 8 samples.

Results

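The 82 genes described here encode the cytosolic ribosomal proteins and were chosen by name. They are the protein-coding genes of the deposited count table whose symbols are Rpl or Rps with a number and its usual suffixes, Rplp0, Rplp1, Rplp2 or Rpsa, with pseudogenes left out, and they make up 82 of 25247 genes in the table. The large subunit holds 50 members and the small subunit 32. Of the 82, 5 are named as paralogs of another member (Rpl3l, Rpl7l1, Rpl22l1, Rpl39l and Rps27l), and Rpl10l, another name that the pattern takes, was not analysed here.

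Langerhans cells are the resident antigen-presenting cells of the epidermis. They were sorted from mouse ear skin as DAPI- CD45+ Ly6G- CD103- MHCII+ CD24+ EpCAM+ cells, and bulk RNA sequencing gave 8 libraries from C57BL/6 mice, labelled EZH2 -/- (KO) or wild type (WT). Ezh2 is the methyltransferase of Polycomb repressive complex 2. The labels give neither the deleted part of Ezh2, the driver of any Cre, nor the age of the mice, and they do not say that the libraries came from separate animals, so a p-value measures the spread between libraries, which may be technical. In bulk RNA, fewer cells of a type and less RNA per cell cannot be told apart.

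For 4 libraries the title and the description give different codes. RMN038 and RMN039 are KO and RMN030 and RMN031 are WT by both labels, and these are called undisputed. By the title codes, KO also holds RMN032 and RMN033, and WT also holds RMN036 and RMN037. By the description codes these 4 change places, so that KO is RMN036 to RMN039 and WT is RMN030 to RMN033, which is also the split into the later and the earlier run of codes. Every comparison below was made 3 times, with the 2 KO and 2 WT undisputed libraries, with all 8 by title and with all 8 by description, and none of the 3 is preferred. Among the undisputed libraries, and by description, each genotype is 1 code run, so genotype and run cannot be told apart there.

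Total counts per library ran from 11051402 to 18966195. The 10 Langerhans cell markers, Cd207 and Epcam among them, were all detected, with a summed level of 78418 to 99894 CPM (counts scaled to a library total of 1000000). The 6 keratinocyte markers were also all detected and summed to 11711 to 15069 CPM. The 12 T lineage markers were all detected and summed to 329 and 322 CPM in RMN030 and RMN031, and to 38.4 to 52.2 CPM in the other 6 libraries. Mitochondrially encoded genes took 3.76 to 4.03% of counts in the later run and 1.02 to 1.87% in the earlier, and all 5 red cell markers were detected, summing to 580 to 1355 CPM in the later run and 122 to 226 CPM in the earlier. The 4 mast cell and 5 fibroblast markers, all detected, summed to 23.3 to 47.4 and 110 to 176 CPM in the later run, against 2.16 to 5.76 and 35.6 to 49.1 CPM in the earlier. Ezh2 itself was at 12.7 and 10.5 CPM in the undisputed KO libraries, against 15.7 and 22.4 CPM in the undisputed WT libraries, and at 15.2, 14.9, 19.0 and 17.6 CPM in the disputed RMN032, RMN033, RMN036 and RMN037. All 4 KO values were below all 4 WT values by the title codes, as in 1.53% of all genes tested, and the groups overlapped by the description codes. The log2 difference of Ezh2, KO minus WT, was -0.66 ± 0.31 in the undisputed libraries, -0.49 ± 0.18 by title and -0.15 ± 0.22 by description (SE, edgeR adjusted p = 0.455, 0.998 and 0.869). This remaining signal does not test the deletion, since the deleted exons are not known here.

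A cytosolic ribosome joins a small subunit, which reads the messenger RNA, to a large subunit, which makes the peptide bond. Each ribosomal protein is needed in about equal copy number, and the mRNAs of nearly all of them share a terminal oligopyrimidine tract, an opening C followed by a run of C and T, through which mTOR and the protein Larp1 set their translation together. Mammalian genomes also hold many processed pseudogenes of these genes, which are reverse-transcribed copies of the mRNAs and can draw short reads away from the member they were copied from.

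The transcript starts are shown because they carry that shared element. In the annotation (GENCODE M21, genome build GRCm38), the principal transcript of 10 of 82 members (12.2%) begins with a C at the head of an unbroken C and T run of at least 5 bases, against 367 of 16358 protein-coding genes of the table (2.24%). These are annotated starts, which can lie some bases from the start that cells use, and the libraries do not measure start sites. The first 25 bases of the 6 members with the longest such runs are, with the run in capitals:
Rps24: CTCTTTTCCTCCTCTCCagctccgg
Rpl32: CTTCCTTCTTCCTCggcgctgccta
Rpl4: CTTTTCCTgtgggagcagccgggta
Rpl30: CCTTTCTCgctccccggccatcttg
Rps21: CCCTCCTgcccaatagtgctgcgga
Rpl37: CTCTTCCggtctctttggcctcgcc
Rps24 lies at chr14:24487125-24496959 on the plus strand and Rpl32 at chr6:115805505-115808747 on the minus strand. Rpl4 is at chr9:64173375-64178666 (plus), Rpl30 at chr15:34440505-34443640 (minus), Rps21 at chr2:180257377-180258445 (plus) and Rpl37 at chr15:5116645-5119140 (plus). The 6 share the element and not a level, since they hold both one of the highest members per length, Rpl4, and the lowest other than the paralogs, Rps21.

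The copies are shown as well, because they decide what a count of a member means. Rps3a1 (chr3:86137940-86142702, minus strand) encodes a small subunit protein, and Rps3a2 (chr14:88123017-88123808, minus strand) is annotated as a processed pseudogene of it. Their first 90 coding bases have 0 differences:
Rps3a1: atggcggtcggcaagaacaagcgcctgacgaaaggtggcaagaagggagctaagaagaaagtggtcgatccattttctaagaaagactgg
Rps3a2: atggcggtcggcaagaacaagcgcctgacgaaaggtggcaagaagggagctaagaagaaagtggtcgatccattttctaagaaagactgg
The first 90 coding bases of Rpl6 (chr5:121204481-121209241, plus strand), a large subunit gene, and the matching bases of its processed pseudogene Rpl6l (chr10:111125851-111126721, plus strand) have 2 differences, which are in capitals:
Rpl6: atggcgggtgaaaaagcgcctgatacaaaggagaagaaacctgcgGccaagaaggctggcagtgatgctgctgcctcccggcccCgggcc
Rpl6l: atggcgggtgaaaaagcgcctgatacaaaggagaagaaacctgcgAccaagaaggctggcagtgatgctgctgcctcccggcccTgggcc
A read of such a stretch that lies within a single exon of Rps3a1 matches both loci equally well. How the authors' counting treated reads of that kind is not given in the sources used here.

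Members took 1.45 to 1.90% of the counts of a library. The share was 1.57 and 1.54% in the undisputed KO libraries RMN038 and RMN039, against 1.90 and 1.54% in the undisputed WT libraries RMN030 and RMN031. In the disputed libraries it was 1.504% in RMN032, 1.73% in RMN033, 1.46% in RMN036 and 1.45% in RMN037. RMN030 was the highest and RMN037 the lowest of the 8, and the Wilson 95% interval of a share was at most 0.0148 percentage points wide, counting error only.

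By group, the share averaged 1.56 ± 0.0186% in undisputed KO and 1.72 ± 0.251% in undisputed WT libraries (SD, n = 2 each). It averaged 1.59 ± 0.10% in KO and 1.59 ± 0.210% in WT by the title codes, and 1.51 ± 0.0573% in KO and 1.67 ± 0.182% in WT by the description codes (SD, n = 4 each). The groups overlapped in all 3. Since the share is a score over the members, it is given without a test. Within the earlier code run, the title codes put RMN032 and RMN033 (KO, 1.504 and 1.73%) beside RMN030 and RMN031 (WT, 1.90 and 1.54%), and within the later run RMN038 and RMN039 (KO, 1.57 and 1.54%) beside RMN036 and RMN037 (WT, 1.46 and 1.45%). KO was thus above WT in the later run without overlap, and the groups overlapped in the earlier. Without RMN030 the mean share of KO minus that of WT was 0.0123 percentage points in the undisputed libraries, 0.10 by title and -0.0861 by description, where with it these were -0.165, -0.00282 and -0.162. Without RMN031 they were -0.343, -0.0182 and -0.204, and with the pseudogene copies of the members added, -0.272, -0.00597 and -0.266.

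**Figure D1:**
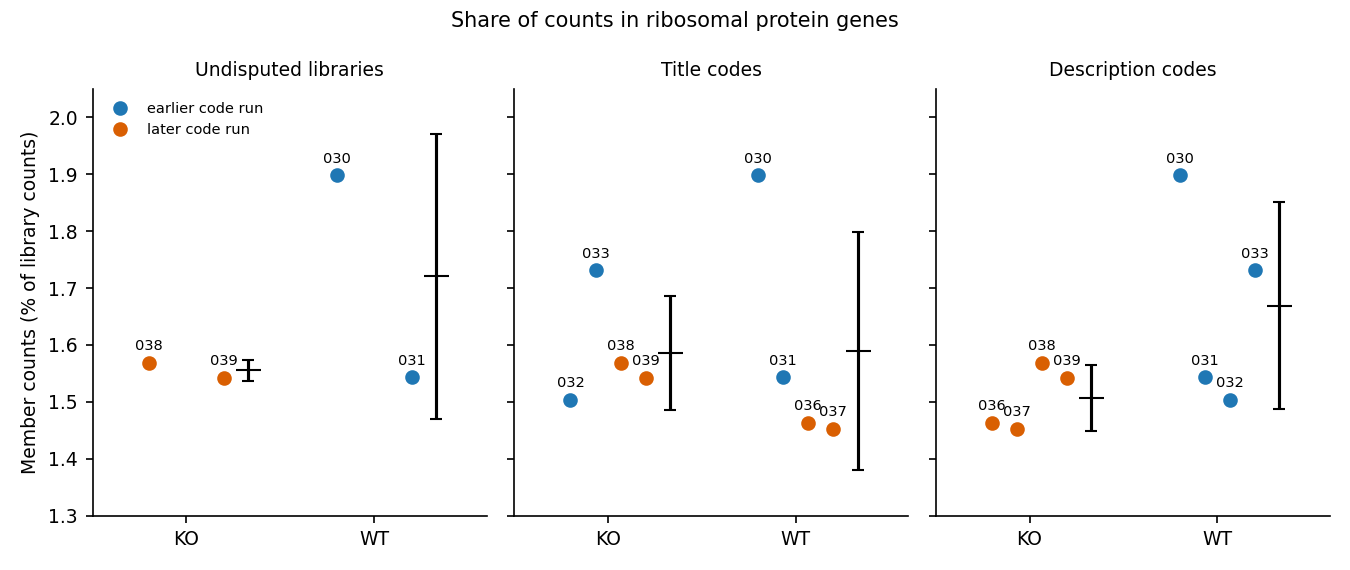
Counts in the 82 ribosomal protein genes as a percent of each library's counts, by the undisputed codes, the title codes and the description codes, KO left of WT. Points are libraries labelled by the last 3 digits of their code and coloured by code run, bars are mean ± SD, the y axis starts above 0, and RMN030 at 1.90% is the highest point of every panel in which it stands.

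The large subunit took 1.07 and 1.04% of counts in the undisputed KO libraries, against 1.28 and 1.05% in the undisputed WT libraries. The small subunit took 0.501 and 0.502% in those KO libraries, against 0.621 and 0.496% in those WT libraries. The ratio of large to small subunit counts was 2.13 and 2.07 in undisputed KO, against 2.06 and 2.11 in undisputed WT, and 2.24, 2.16, 2.26 and 2.21 in the disputed RMN032, RMN033, RMN036 and RMN037. By the title codes the ratio averaged 2.15 ± 0.0709 in KO and 2.16 ± 0.0944 in WT, and by the description codes 2.17 ± 0.0850 in KO and 2.14 ± 0.0790 in WT (SD, n = 4 each), with overlapping groups. Within the runs the title codes gave no overlap and opposite directions, with 2.24 and 2.16 in KO above 2.06 and 2.11 in WT in the earlier run, and 2.13 and 2.07 in KO below 2.26 and 2.21 in WT in the later.

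Much of this ratio rests on 3 genes. Without Rplp0, Rpl3 and Rpl4, the ratio lay between 1.02 and 1.09 in the 8 libraries. These 3 hold the most counts of all members and all belong to the large subunit, so leaving them out lowers the ratio by construction. Without them the title codes no longer gave opposite directions within the runs. In the earlier run KO was at 1.055 and 1.022, below WT at 1.069 and 1.062. In the later run KO was at 1.051 and 1.042, below WT at 1.059 and 1.089. The geometric mean of the large subunit members over that of the small subunit members, which weights each gene equally, lay between 1.04 and 1.12. On this measure the groups by title overlapped within both runs. Both subunits moved together from library to library. Relative to each member's own mean over the 8 libraries, the median large subunit member was 0.40 higher in RMN030 and the median small subunit member 0.36 higher, on the scale log2(CPM + 0.5), and in RMN036 the medians were -0.23 and -0.27.

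That shift in RMN030 ran through almost the whole family. Of the 77 members other than the 5 paralogs, 71 had their highest CPM in RMN030 and 76 were above their own mean there. RMN036 was the lowest library for 42 members, RMN037 for 16 and RMN039 for 11, and in RMN036 5 members were above their own mean. The median member deviated by 0.05 in RMN038 and -0.08 in RMN039, by 0.39 in RMN030 and 0.02 in RMN031, and by -0.09, 0.07, -0.24 and -0.06 in RMN032, RMN033, RMN036 and RMN037. Across all genes tested the same medians lay between -0.03 and 0.06, so the median gene did not share the members' shift in RMN030. Whether other abundant or short mRNAs shifted there was not tested. The T lineage markers summed to 329 CPM in RMN030 and 322 CPM in RMN031, and their part in the members' levels was not tested.

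**Figure D2:**
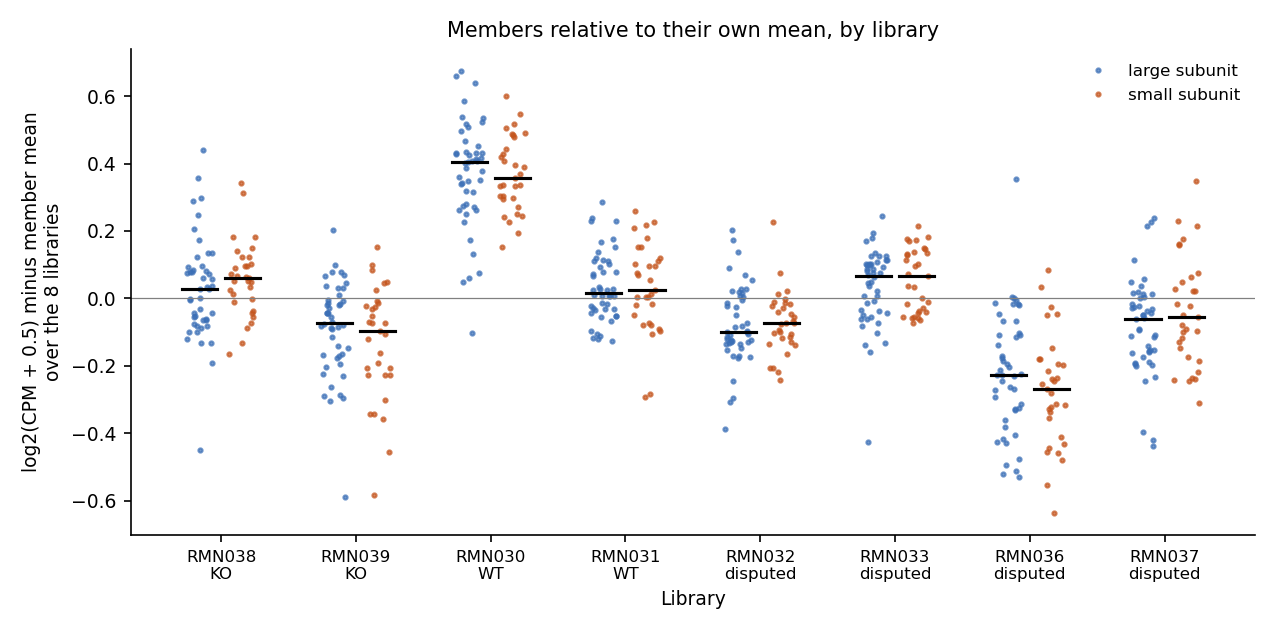
Level of each of the 77 members other than the paralogs in each library, as log2(CPM + 0.5) minus the member's mean over the 8 libraries, with the undisputed KO libraries first, then undisputed WT, then the 4 disputed ones. Points are genes and black lines are medians (0.40 and 0.36 for the large and small subunit in RMN030, -0.23 and -0.27 in RMN036).

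The members varied together across the libraries. The first principal component of the 77 members over the 8 libraries held 69.2% of their variance, against 24.2% for all genes tested. These sets differ in size, and no set of genes matched to the members in size or level was compared. The median Pearson correlation over the 2926 pairs of members was 0.69, and 96.2% of pairs were positive. All pairs rest on the same 8 libraries and their shared depth and composition, with 71 of the 77 members highest in RMN030. Pairs of other genes were not correlated for comparison. The shorter members moved more than the longer ones in some libraries: the median deviation was 0.42 for the 38 members with a coding length under 456 bases and 0.33 for the 39 others in RMN030, and -0.32 and -0.18 in RMN036. In RMN039 these were -0.17 and -0.02, in RMN031 0.09 and -0.02, and in RMN038 0.08 and -0.01. The longer members moved more in RMN032 (-0.02 for the shorter and -0.12 for the longer), RMN033 (-0.01 and 0.10) and RMN037 (0.01 and -0.10).

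Counts were spread unevenly among proteins that the ribosome holds in about equal number. Levels are compared between genes per kilobase of coding length, as mean CPM over the 8 libraries divided by that length. Reads outside the coding part can enter a count, so this measure can raise genes whose transcript is mostly untranslated. Rpl41, with 75 coding bases in a principal transcript of 544, stood at 457 CPM per kb. Rps15a, with 390 of 5130, and Rps20, with 357 of 3706, stood at 58.6 and 87.3 CPM per kb. The part of untranslated sequence in these levels was not tested. Over the 77 members the levels per length ran over a 170-fold range, with a median of 132 CPM per kb. Rplp0, Rpl4 and Rpl3 held 34.8% of all member counts, and the 6 members with the most counts held 48.4%. Longer members had more counts per length: the 39 longer ones had a median of 315 CPM per kb and 91.5% of member counts, and the 38 shorter ones 79.8 CPM per kb and 7.76%. Spearman's rho between coding length and CPM per kb was 0.79 across the 77 genes, as a description, since genes are not independent replicates.

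**Figure D3:**
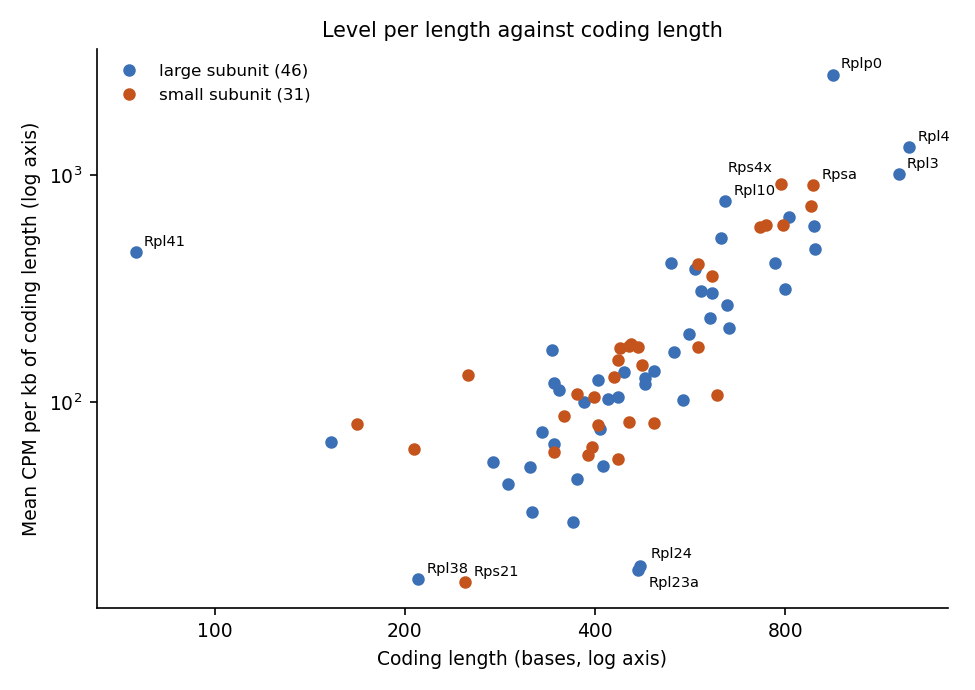
Mean CPM per kb of coding length over the 8 libraries against coding length for the 77 members other than the paralogs, both axes logarithmic, 1 point per gene coloured by subunit. Longer members stand higher (medians 315 and 79.8 CPM per kb for members above and under 456 bases). Rpl41, with 75 coding bases, stands far above the other short ones on this measure, and the cause was not tested.

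The 6 highest members per length were Rplp0, Rpl4, Rpl3, Rps4x, Rpsa and Rpl10, at 2759, 1329, 1009, 911, 904 and 765 CPM per kb. Rplp0 had 2454 and 2456 CPM in undisputed KO (RMN038, RMN039), against 3055 and 2408 CPM in undisputed WT (RMN030, RMN031), and 2572, 3093, 2603 and 2345 CPM in disputed RMN032, RMN033, RMN036 and RMN037. This gene encodes the base of the stalk, the arm of the large subunit that recruits the GTPases of translation. The level of Rpl4 was 1735 CPM in RMN038 and 1511 in RMN039 (KO), 1741 in RMN030 and 1627 in RMN031 (WT), and 1700.1, 1818, 1593 and 1636 CPM in disputed RMN032, RMN033, RMN036 and RMN037. Rpl4 lines the tunnel through which the new peptide leaves, and its 8 values varied least of these 6, with a coefficient of variation of 5.83%. Rpl3 stood at 1218 and 1203 CPM in KO RMN038 and RMN039 and at 1334 and 1163 CPM in WT RMN030 and RMN031, with 1234, 1308, 1205 and 1093 CPM in disputed RMN032, RMN033, RMN036 and RMN037. Rpl3 lies close to the peptidyl transferase centre.

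Rps4x had 763 and 738 CPM in undisputed KO (RMN038, RMN039), against 845 and 716 CPM in undisputed WT (RMN030, RMN031), and 665, 787, 631 and 603 CPM in disputed RMN032, RMN033, RMN036 and RMN037. Rps4x is the X-linked gene of a small subunit protein. The level of Rpsa was 746 CPM in RMN038 and 881 in RMN039 (KO), 999.8 in RMN030 and 741 in RMN031 (WT), and 743, 900.2, 716 and 671 CPM in disputed RMN032, RMN033, RMN036 and RMN037. Rpsa was first described as a laminin receptor precursor and is a small subunit protein. Rpl10 stood at 498 and 485 CPM in KO RMN038 and RMN039 and at 627 and 511 CPM in WT RMN030 and RMN031, with 434, 490.4, 434 and 450.3 CPM in disputed RMN032, RMN033, RMN036 and RMN037. Rpl10 joins the large subunit late in assembly. The undisputed KO and WT values overlapped in 5 of these 6 genes, and in Rpl10 both KO values were below both WT values (log2 difference -0.17 ± 0.14, SE, edgeR adjusted p = 0.742). In the undisputed comparison both KO values lay below both WT values in 30 of the 80 members tested and in 25.2% of all genes tested, and above both in 0 members and in 16.9% of all genes. The other 2 stalk proteins, Rplp1 and Rplp2, bind Rplp0 as dimers. Rplp1 had 64.0 and 49.5 CPM in undisputed KO (RMN038, RMN039), against 89.9 and 60.9 CPM in undisputed WT (RMN030, RMN031), and 47.8, 62.2, 39.4 and 52.4 CPM in disputed RMN032, RMN033, RMN036 and RMN037. The level of Rplp2 was 23.7 CPM in RMN038 and 21.2 in RMN039 (KO), 32.1 in RMN030 and 22.7 in RMN031 (WT), and 20.3, 21.8, 15.7 and 24.2 CPM in disputed RMN032, RMN033, RMN036 and RMN037. Both were highest in RMN030 and lowest in RMN036, and per length they stood at 170 and 65.9 CPM per kb, far under Rplp0.

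Apart from the paralogs, Rps21, Rpl38, Rpl23a and Rpl24 were the lowest per length, at 16.2, 16.7, 18.4 and 19.1 CPM per kb. Rps21 stood at 4.97 and 2.44 CPM in KO RMN038 and RMN039 and at 5.80 and 3.12 CPM in WT RMN030 and RMN031, with 4.66, 4.01, 4.17 and 3.06 CPM in disputed RMN032, RMN033, RMN036 and RMN037. Rps21 is a small protein of the small subunit. Rpl38 had 4.76 and 3.26 CPM in undisputed KO (RMN038, RMN039), against 5.12 and 4.04 CPM in undisputed WT (RMN030, RMN031), and 2.63, 3.59, 2.22 and 2.40 CPM in disputed RMN032, RMN033, RMN036 and RMN037. Rpl38 is the gene lost in the mouse mutant Tail short, in which the translation of Hox mRNAs is altered. The level of Rpl23a was 8.88 CPM in RMN038 and 6.70 in RMN039 (KO), 13.7 in RMN030 and 8.30 in RMN031 (WT), and 8.82, 8.01, 6.32 and 8.03 CPM in disputed RMN032, RMN033, RMN036 and RMN037. Rpl23a lies at the exit of the peptide tunnel, where the signal recognition particle docks, and its annotated pseudogene copies held 780 counts for each 100 of its own. Rpl24 stood at 9.52 and 7.33 CPM in KO RMN038 and RMN039 and at 10.8 and 9.64 CPM in WT RMN030 and RMN031, with 8.95, 6.49, 8.81 and 10.5 CPM in disputed RMN032, RMN033, RMN036 and RMN037. Rpl24 is the gene altered in the mouse mutant Belly spot and tail, and its copies held 223 counts per 100 of its own. For such members, the level depends on how the counting treated reads that match both the gene and its copies, which is not known here.

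The 5 paralogs were not alike. Rpl22l1 had 41.1 to 78.0% as many counts as Rpl22 (64.3% per coding length over the 8 libraries), which binds RNA, is needed for αβ T cell development in mice and represses Rpl22l1. Rpl22 had 35.1 and 34.2 CPM in undisputed KO (RMN038, RMN039), against 35.8 and 37.9 CPM in undisputed WT (RMN030, RMN031), and 38.6, 41.7, 49.3 and 37.2 CPM in disputed RMN032, RMN033, RMN036 and RMN037. The level of Rpl22l1 was 19.7 CPM in RMN038 and 26.6 in RMN039 (KO), 20.1 in RMN030 and 29.5 in RMN031 (WT), and 26.8, 24.3, 20.2 and 22.5 CPM in disputed RMN032, RMN033, RMN036 and RMN037. Rpl22 was highest in RMN036, the library in which most other members were lowest, and Rpl22l1 was highest in RMN031. The undisputed KO values of Rpl22 lay just below those of WT (log2 difference -0.04 ± 0.21, SE, edgeR adjusted p = 0.973), and those of Rpl22l1 overlapped. Rpl7l1, a protein related to Rpl7, had 12.3 to 22.0% as many counts as Rpl7 (18.4% per coding length). Rpl7l1 stood at 85.7 and 79.5 CPM in KO RMN038 and RMN039 and at 77.7 and 90.3 CPM in WT RMN030 and RMN031, with 95.2, 101, 79.6 and 101 CPM in disputed RMN032, RMN033, RMN036 and RMN037. Rpl7 had 536 and 543 CPM in undisputed KO (RMN038, RMN039), against 631 and 515 CPM in undisputed WT (RMN030, RMN031), and 481, 559, 502 and 459 CPM in disputed RMN032, RMN033, RMN036 and RMN037. Rpl7l1 was lowest in RMN030, where 71 of the 77 other members, Rpl7 among them, were highest.

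Rps27l, a target of p53 in human and mouse cells, had 18.2 to 27.6% as many counts (20.8% per coding length) as Rps27, a zinc-finger protein of the small subunit. The level of Rps27l was 9.09 CPM in RMN038 and 5.61 in RMN039 (KO), 8.71 in RMN030 and 8.03 in RMN031 (WT), and 6.19, 6.85, 5.18 and 5.63 CPM in disputed RMN032, RMN033, RMN036 and RMN037. Its highest library was RMN038, and the KO and WT values overlapped. Rpl3l, which is known from striated muscle, had 0 to 10 counts per library, and Rpl39l, known from testis, had 0 to 4. Rpl3l stood at 0 and 0.452 CPM in KO RMN038 and RMN039 and at 0.305 and 0 CPM in WT RMN030 and RMN031, with 0, 0.527, 0 and 0 CPM in disputed RMN032, RMN033, RMN036 and RMN037. Rpl39l had 0 and 0.181 CPM in undisputed KO (RMN038, RMN039), against 0 and 0.108 CPM in undisputed WT (RMN030, RMN031), and 0.245, 0, 0 and 0 CPM in disputed RMN032, RMN033, RMN036 and RMN037. These values come from a few reads, and neither gene was tested. The level of Rpl39 was 12.4 CPM in RMN038 and 8.87 in RMN039 (KO), 13.5 in RMN030 and 12.4 in RMN031 (WT), and 8.89, 10.0, 8.81 and 7.31 CPM in disputed RMN032, RMN033, RMN036 and RMN037. Rpl39, the partner of Rpl39l, encodes a small protein of the peptide exit tunnel. Within the transcripts, Rpl3 and Rpl3l aligned at 74.4% identity, Rpl22 and Rpl22l1 at 74.6%, Rps27 and Rps27l at 76.4% and Rpl39 and Rpl39l at 84.8%.

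Pseudogene copies took many counts. The table has 626 annotated pseudogenes whose sequence matches a member at 90% identity or more over at least 200 bases, and 69 of the 77 members have at least 1, with a median of 5. Together these copies had 65.8 to 68.1 counts per 100 member counts in each library, which is 0.958 to 1.27% of all counts. In 41 members the copies had more than 0.5 counts for each count of the member. The copies kept their proportion from library to library: Rps3a2 had 43.1 to 46.6% of the counts of Rps3a1 in every library, Rps3a3, another copy, 14.7 to 16.8%, and Rpl6l 17.1 to 19.3% of those of Rpl6. Rps12l1, identical to Rps12 over its 399 aligned bases, had 38.6 to 47.6% of the counts of Rps12.

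The largest copy was Rpl3-ps1, with 95033 counts over the 8 libraries beside 150623 for Rpl3, and Rpl3 as a whole had 134 copy counts per 100 of its own. Rps2 had 162 and Rps6 166. At the other end, Rpl4 had 1.46, Rps27 2.77, Rpl32 0.774 and Rpl22 0.623 copy counts per 100 of their own, and members including Rps3, Rpl8, Rps9, Rpl41, Rps29, Rpl39 and Rplp2 had no copy at this identity. Spearman's rho between the number of copies and the level per length was 0.08 across the 77 members. With the copies added to the members, the share of counts was 2.61 and 2.59% in undisputed KO and 3.17 and 2.57% in undisputed WT libraries. If a read was counted at several places, these sums hold it several times.

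**Figure D4:**
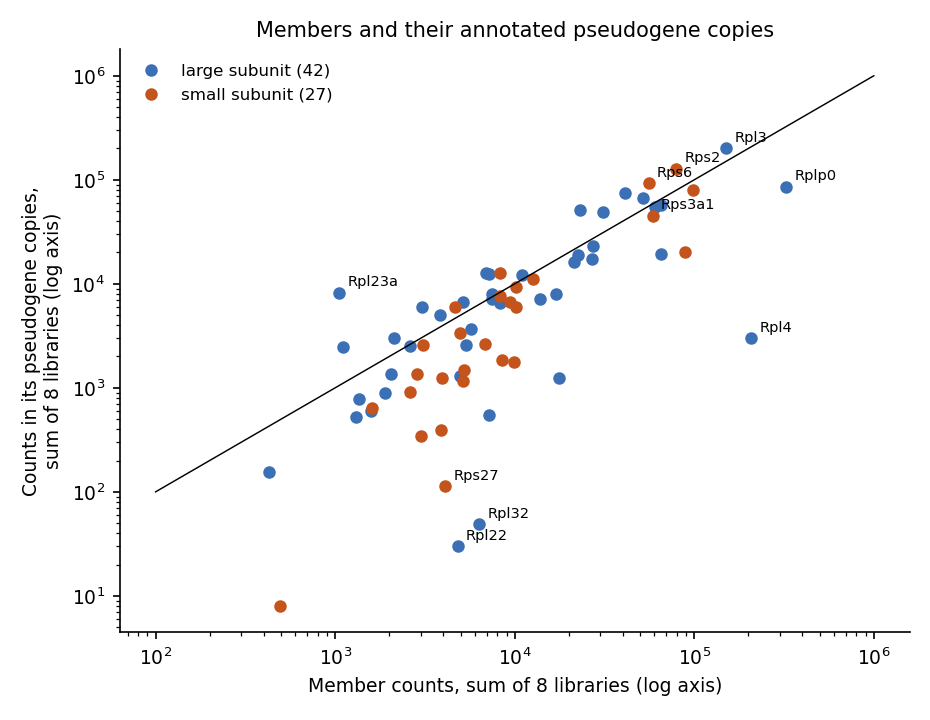
Counts in the annotated pseudogene copies of each member against the member's own counts, both summed over the 8 libraries on logarithmic axes, for the 69 members with a copy, coloured by subunit. The line marks equal counts, and Rpl3, Rps2, Rps6 and Rpl23a lie above it, while Rpl4, Rps27, Rpl32 and Rpl22 lie far below.

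No member passed the test between genotypes in any reading. Genes were tested with edgeR's quasi-likelihood test over all genes with enough counts, and called at a Benjamini-Hochberg adjusted p under 0.05, with log2 differences given as KO minus WT. In the undisputed libraries, 0 of 80 members tested were called, where 0.794% of all 14727 genes tested were. With the title codes, 0 of 80 were called, where 0% of all 14630 genes tested were, and by the description codes 0 of 80, where 2.02% of genes were. At an unadjusted p under 0.05 there were 1, 0 and 2 members in these 3 fits, or 1.25, 0 and 2.5% of those tested, against 11.3, 4.59 and 12.6% of all genes. DESeq2 also called 0 members in each, where it called 305, 19 and 660 of all genes. At an unadjusted p under 0.05 it had 2, 0 and 2 members (2.5, 0 and 2.5%), against 10.4, 5.28 and 13.8% of all genes. Likewise limma voom called 0 members, where it called 140, 0 and 374 of all genes. It had 1, 0 and 0 members at that level (1.25, 0 and 0%), against 12.4, 5.32 and 14.5% of all genes. Rpl3l and Rpl39l had too few counts to be tested.

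Most members lay below 0. In the undisputed libraries, the median member was at -0.17 on the log2 scale, and 73 of 80 were below 0, while the median of all genes tested was -0.0016 (7394 of 14727 below 0). The median member was at -0.06 by the title codes, with 58 of 80 below 0, and at -0.16 by the description codes, with 75 of 80 below 0. The large subunit had medians of -0.17, -0.06 and -0.15 in these 3 fits and the small subunit -0.20, -0.06 and -0.16. Members that move together in every library are not independent, so these counts of signs carry no test. Leaving out RMN030 changed this. The median member was then at 0.01 in the undisputed libraries (43 of 80 above 0), at 0.08 by the title codes (64 of 80 above 0) and at -0.04 by the description codes (54 of 80 below 0).

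**Figure D5:**
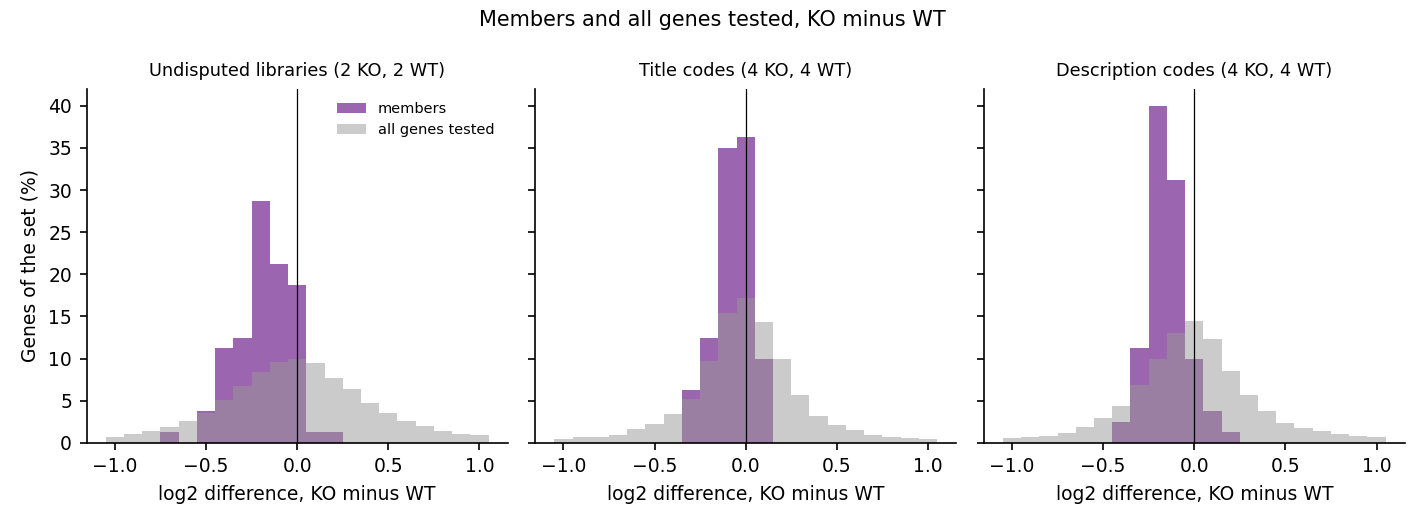
Distribution of the log2 difference, KO minus WT, of the 80 members tested and of all genes tested in each comparison, as percent of each set per bin of 0.1. The members form a narrow peak whose median is -0.17 in the undisputed libraries, -0.06 by the title codes and -0.16 by the description codes, and genes beyond the axis (9.40, 2.76 and 4.92% of all genes tested, and no member) are not drawn.

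The 4 members with the smallest p in the undisputed libraries came from both subunits. Over the 8 libraries Rps25, Rps10, Rpl36a and Rpl29 averaged 40.9, 40.2, 10.5 and 58.1 CPM. Rps25 stood at 35.9 and 31.4 CPM in KO RMN038 and RMN039 and at 50.9 and 48.4 CPM in WT RMN030 and RMN031, with 40.3, 43.2, 32.0 and 45.1 CPM in disputed RMN032, RMN033, RMN036 and RMN037. Rps25, known from yeast and human cells for its part in internal ribosome entry, had both undisputed KO values below both WT values, with a log2 difference of -0.51 ± 0.21 (SE, edgeR adjusted p = 0.387). It was at -0.23 ± 0.16 by title (edgeR adjusted p = 0.998) and at -0.30 ± 0.15 by description (edgeR adjusted p = 0.452), with overlapping groups in both. Rps10 had 38.4 and 33.7 CPM in undisputed KO (RMN038, RMN039), against 60.0 and 44.7 CPM in undisputed WT (RMN030, RMN031), and 33.8, 41.3, 32.7 and 36.9 CPM in disputed RMN032, RMN033, RMN036 and RMN037. Rps10 is a protein of the small subunit that is ubiquitinated when ribosomes stall and collide, and its difference was -0.49 ± 0.23 in the undisputed libraries (edgeR adjusted p = 0.454).

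The level of Rpl36a was 7.39 CPM in RMN038 and 8.32 in RMN039 (KO), 15.1 in RMN030 and 11.5 in RMN031 (WT), and 11.6, 10.2, 8.07 and 11.99 CPM in disputed RMN032, RMN033, RMN036 and RMN037. The difference was -0.71 ± 0.34 (SE, edgeR adjusted p = 0.468), the furthest from 0 of the 80 members in the undisputed libraries. Rpl29 stood at 50.4 and 54.0 CPM in KO RMN038 and RMN039 and at 77.7 and 64.6 CPM in WT RMN030 and RMN031, with 53.8, 59.1, 47.5 and 58.1 CPM in disputed RMN032, RMN033, RMN036 and RMN037. Rpl29 was also described as a heparan sulfate-binding protein, and its difference was -0.40 ± 0.19 there (edgeR adjusted p = 0.478). In these 2 genes as in Rps10 the undisputed KO values lay below the WT values, as in 25.2% of all genes tested, and by the title and the description codes the groups overlapped.

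In the title reading, Rpl26, Rps15a and Rpl37a had the smallest p among lower members. Rpl26 had 43.1 and 38.7 CPM in undisputed KO (RMN038, RMN039), against 64.9 and 49.5 CPM in undisputed WT (RMN030, RMN031), and 43.2, 42.3, 39.5 and 47.4 CPM in disputed RMN032, RMN033, RMN036 and RMN037. Rpl26 stands at the exit of the peptide tunnel and is modified by UFM1. The level of Rps15a was 24.7 CPM in RMN038 and 16.2 in RMN039 (KO), 31.5 in RMN030 and 26.0 in RMN031 (WT), and 18.9, 21.5, 18.7 and 25.4 CPM in disputed RMN032, RMN033, RMN036 and RMN037. Rpl37a stood at 14.8 and 9.68 CPM in KO RMN038 and RMN039 and at 18.9 and 17.5 CPM in WT RMN030 and RMN031, with 14.3, 14.9, 13.0 and 17.6 CPM in disputed RMN032, RMN033, RMN036 and RMN037. All 3 were lower in the undisputed KO than in the undisputed WT libraries and overlapped by the title codes, with log2 differences of -0.27 ± 0.15, -0.32 ± 0.20 and -0.33 ± 0.20 in that reading (SE, edgeR adjusted p = 0.998 each). Rpl37a in RMN039 was far under the other libraries that the title codes name KO.

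By the description codes 2 members had all KO libraries below all WT libraries, Rpl32 and Rps27, in a fit where 5.09% of genes tested lay wholly below and 3.74% wholly above. None lay wholly above. Rpl32 had 48.7 and 43.5 CPM in undisputed KO (RMN038, RMN039), against 71.0 and 55.3 CPM in undisputed WT (RMN030, RMN031), and 52.1, 52.7, 36.0 and 49.1 CPM in disputed RMN032, RMN033, RMN036 and RMN037. Rpl32 belongs to the large subunit, and its difference was -0.34 ± 0.15 (edgeR adjusted p = 0.359). The level of Rps27 was 32.9 CPM in RMN038 and 25.6 in RMN039 (KO), 47.8 in RMN030 and 34.4 in RMN031 (WT), and 32.9, 36.1, 28.0 and 27.6 CPM in disputed RMN032, RMN033, RMN036 and RMN037. Its difference was -0.37 ± 0.16 (edgeR adjusted p = 0.364). In the title reading, 0 members lay wholly below, where 1.53% of genes did, and 0 wholly above, where 1.41% did.

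Of the members that were higher, none was near the threshold. Rps28 stood at 16.3 and 10.9 CPM in KO RMN038 and RMN039 and at 14.3 and 10.3 CPM in WT RMN030 and RMN031, with 12.1, 12.3, 11.1 and 16.4 CPM in disputed RMN032, RMN033, RMN036 and RMN037. Rps28 was at 0.19 ± 0.34 in the undisputed libraries and 0.20 ± 0.21 by the description codes (SE, edgeR adjusted p = 0.906 and 0.787). Rpl5 had 446 and 442 CPM in undisputed KO (RMN038, RMN039), against 476 and 391 CPM in undisputed WT (RMN030, RMN031), and 394, 435, 423 and 377 CPM in disputed RMN032, RMN033, RMN036 and RMN037. Rpl5 carries 5S ribosomal RNA into the large subunit and, when free, binds Mdm2. Its difference was 0.08 ± 0.14 in the undisputed libraries (edgeR adjusted p = 0.907). The level of Rpl28 was 25.3 CPM in RMN038 and 22.4 in RMN039 (KO), 30.8 in RMN030 and 19.5 in RMN031 (WT), and 16.1, 19.4, 18.1 and 21.5 CPM in disputed RMN032, RMN033, RMN036 and RMN037. Rpl28, of the large subunit, was at 0.07 ± 0.22 by the description codes and -0.03 ± 0.29 in the undisputed libraries (edgeR adjusted p = 0.949 and 0.987).

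Rpl35a stood at 30.8 and 19.5 CPM in KO RMN038 and RMN039 and at 31.8 and 25.6 CPM in WT RMN030 and RMN031, with 26.4, 26.2, 17.7 and 18.1 CPM in disputed RMN032, RMN033, RMN036 and RMN037. Rpl35a, 1 of the genes mutated in human Diamond-Blackfan anaemia, was at 0.14 ± 0.22 by the title codes and -0.31 ± 0.20 by the description codes (SE, edgeR adjusted p = 0.998 and 0.584). Rps15 had 27.1 and 24.3 CPM in undisputed KO (RMN038, RMN039), against 29.1 and 22.8 CPM in undisputed WT (RMN030, RMN031), and 24.2, 27.5, 20.5 and 20.9 CPM in disputed RMN032, RMN033, RMN036 and RMN037. Its difference was 0.14 ± 0.16 by the title codes (edgeR adjusted p = 0.998). The level of Rps3a1 was 494 CPM in RMN038 and 481 in RMN039 (KO), 554 in RMN030 and 474 in RMN031 (WT), and 448, 534, 417 and 402 CPM in disputed RMN032, RMN033, RMN036 and RMN037. Rps3a1 was at 0.08 ± 0.11 by the title codes (edgeR adjusted p = 0.998), beside the copies described above. The standard errors of the 80 members ran from 0.13 to 0.55 in the undisputed libraries, from 0.08 to 0.38 by the title codes and from 0.07 to 0.37 by the description codes.

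Among the settings tried, leaving out RMN031 gave the only calls of members, with 1 WT library, RMN030, left in the undisputed comparison and assumed to vary like the KO libraries. Then 6 of 80 members were called, all lower in KO, where 4.02% of all 15628 genes tested were called. They included Rpl13, at -0.47 ± 0.11 (edgeR adjusted p = 0.00974), Rplp0, at -0.30 ± 0.08 (adjusted p = 0.0212), and Rpl10a, at -0.51 ± 0.14 (adjusted p = 0.0251). Rpl8 and Rps9 were at -0.41 ± 0.12 and -0.42 ± 0.12 (edgeR adjusted p = 0.0389 and 0.0421). In the other 10 settings of that comparison the 6 genes had adjusted p-values from 0.608 to 1.00. The median member was then at -0.34, with 78 of 80 below 0.

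Within the runs the title codes gave opposite signs. In the earlier run (KO RMN032 and RMN033, WT RMN030 and RMN031) the median member was at -0.27, with 75 of 80 below 0, and in the later run (KO RMN038 and RMN039, WT RMN036 and RMN037) at 0.14, with 70 of 80 above 0. No member was called by edgeR in either, where 0.375% of all genes were called in the earlier run and 0% in the later. At an unadjusted p under 0.05 there were 6 and 8 members (7.50 and 10.0%), against 7.60 and 7.35% of all genes. The genotype by run interaction, later minus earlier, was above 0 in 78 of 80 members with a median of 0.40, while the median over all genes was -0.01. It was called in 0 of 80 members, where 0.0478% of all genes were, and 13 members had an unadjusted p under 0.05 (16.2%, against 7.89% of all genes). Its smallest adjusted p among members was 0.467, for Rpl10, at 0.52 ± 0.17. RMN030 is in the WT side of the earlier run and RMN036, the lowest library for most members, in the WT side of the later.

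Some ribosomal proteins have genes under other names, which the name pattern misses. Among them, Fau encodes a fusion of a ribosomal protein with a ubiquitin-like protein and Rack1 a scaffold on the small subunit, and neither was called in any fit. Fau stood at 84.7 and 76.6 CPM in KO RMN038 and RMN039 and at 122 and 92.2 CPM in WT RMN030 and RMN031, with 81.1, 94.3, 63.9 and 87.4 CPM in disputed RMN032, RMN033, RMN036 and RMN037. Its difference was -0.37 ± 0.19 in the undisputed libraries (edgeR adjusted p = 0.518), with both KO values below both WT values. Rack1 had 491 and 533 CPM in undisputed KO (RMN038, RMN039), against 561 and 429 CPM in undisputed WT (RMN030, RMN031), and 444, 522, 452 and 433 CPM in disputed RMN032, RMN033, RMN036 and RMN037. It was at 0.09 ± 0.16 (edgeR adjusted p = 0.901), with overlapping values.

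Of 26 translation factors and other mRNAs with a terminal oligopyrimidine start, 1 rose in KO in the undisputed libraries, 0 passed by the title codes and 1 rose by the description codes, and none fell. Of all genes tested, 0.794, 0 and 2.02% were called in these 3 fits. The medians of the 26 were 0.12, 0.07 and 0.05 on the log2 scale, in the same order, where those of all genes tested were -0.0016, -0.0033 and -0.0085. The gene was Ybx1 both times, an RNA-binding protein of messenger particles. The level of Ybx1 was 193 CPM in RMN038 and 213 in RMN039 (KO), 107 in RMN030 and 120.5 in RMN031 (WT), and 84.4, 67.6, 207 and 185 CPM in disputed RMN032, RMN033, RMN036 and RMN037. The difference was 0.88 ± 0.15 in the undisputed libraries (edgeR adjusted p = 0.0229) and 1.11 ± 0.16 by the description codes (adjusted p = 0.00260), with no overlap in either. Read by title, it was at -0.15 ± 0.42 (edgeR adjusted p = 0.998), and the 4 libraries of the later run were all above the 4 of the earlier, in both title genotypes. Without RMN039 the undisputed adjusted p was 0.0523, and over the settings of that comparison it ran from 8.96e-06 to 0.0523, and by the description codes from 1.10e-09 to 0.0127. Eif3e, a subunit of initiation factor 3, had the smallest p by the title codes, at 0.24 ± 0.10 (edgeR adjusted p = 0.998), and Nap1l1, a histone chaperone, was at 0.42 ± 0.16 in the undisputed libraries (adjusted p = 0.339).

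Ribosome biogenesis genes make ribosomal RNA, modify it and assemble the subunits. Of 55 ribosome biogenesis genes, 0 were called in each of the 3 edgeR fits, with 3, 3 and 5 at an unadjusted p under 0.05 in the undisputed, title and description comparisons and medians of -0.02, -0.02 and 0.02. Of all genes tested, 0.794, 0 and 2.02% were called and 11.3, 4.59 and 12.6% had an unadjusted p under 0.05. Gnl3, a nucleolar GTPase, was at 100.2 ± 13.2 CPM in undisputed KO and 71.0 ± 5.65 CPM in undisputed WT (SD, n = 2 each), a difference of 0.54 ± 0.18 (SE, edgeR adjusted p = 0.250). Gar1, of the H/ACA pseudouridylation particles, was at 9.01 ± 1.11 CPM in KO and 5.76 ± 0.162 CPM in WT by the description codes (SD, n = 4 each), a difference of 0.69 ± 0.22 (SE, edgeR adjusted p = 0.153). Lsg1, a GTPase that releases Nmd3 from the large subunit, had the smallest p by the title codes, at 44.0 ± 3.21 CPM in KO and 31.6 ± 1.77 CPM in WT (SD, n = 4 each; edgeR adjusted p = 0.940).

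Of 77 mitochondrial ribosomal protein genes tested, 0 were called in each of the 3 edgeR fits, with 1, 1 and 0 at an unadjusted p under 0.05 and medians of -0.03, 0.00 and -0.05. Among all genes tested, 0.794, 0 and 2.02% were called and 11.3, 4.59 and 12.6% had an unadjusted p under 0.05. The mitochondrial ribosomal protein genes took 0.0935 to 0.105% of counts, again with RMN030 highest. In the undisputed libraries the smallest p belonged to Mrpl44, at 3.47 ± 1.49 CPM in KO and 7.50 ± 1.96 CPM in WT (SD, n = 2 each; edgeR adjusted p = 0.429). Of 22 regulators of translation and ribosomes, which include the subunits of mTOR complexes and Larp1, 1 rose by the description codes, where 2.02% of all genes were called. In the undisputed and title comparisons 0 were called, against 0.794 and 0% of all genes. The medians of the 22 were -0.08 and -0.02 in the undisputed and title comparisons and 0.06 by the description codes. The gene called was Zfp622, whose yeast relative Rei1 acts in the last steps of large subunit assembly. Zfp622 stood at 52.4 and 47.7 CPM in KO RMN038 and RMN039 and at 30.4 and 36.7 CPM in WT RMN030 and RMN031, with 24.2, 25.6, 46.6 and 45.7 CPM in disputed RMN032, RMN033, RMN036 and RMN037. The difference was 0.76 ± 0.15 by the description codes (SE, edgeR adjusted p = 0.0229), with KO wholly above WT. Read by title, it was at -0.09 ± 0.27 (edgeR adjusted p = 0.998). The call was lost without any 1 of RMN032, RMN033, RMN036, RMN038 or RMN039, with adjusted p-values of 0.0674, 0.0925, 0.0566, 0.0720 and 0.0592, and over all settings they ran from 0.000168 to 0.0925. In both Ybx1 and Zfp622 the higher group is the later code run, whose libraries also hold more mitochondrial and red cell transcripts, and the part of these in the result was not tested.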

How the data were processed

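The deposited table holds whole-number read counts per gene for 8 libraries. Per the submitters' processing notes, the authors used STAR 2.5.2b, featureCounts 1.5.0 and the builds GRCm38 and mm10; how reads that fit several places, strand and mate pairs were counted is not given in the sources used here. Of the counts from 1 to 20, 60.1% were even. Columns were matched to samples by the codes in the titles. The IDs were paired with symbols, gene types and coordinates of GENCODE M21 (25080 with a symbol, 167 without). Members and lists were chosen with earlier results of these data known.

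The counts were tested with edgeR 4.0.16 (TMM scaling, filterByExpr, robust quasi-likelihood F-test, two-sided, Benjamini-Hochberg adjustment over all genes tested), on the whole table, in R 4.3.3, after the scripts were tested on simulated data. Alternatives were DESeq2 1.42.0, limma 3.58.1 (voom with quality weights), RLE scaling, no filter, a filter at 1 CPM, mitochondrial genes left out, libraries left out in turn, RMN030 and RMN031 left out together, a code run covariate and a replicate block. Same-numbered libraries correlated at 0.05 to 0.10 by title and -0.007 to 0.03 by description, so numbers were not taken to pair libraries. CPM and shares used all counts of a library, shares with Wilson 95% intervals, and deviations added 0.5 CPM before log2. Coding length and first bases came from the principal transcript of GENCODE M21. Pseudogene copies were matched with blastn 2.17.0 (identity of at least 90% over at least 200 bases).

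Members named with every library's value were those among the 6 highest or 6 lowest per length, those called, the 4 with the smallest p in each direction and fit, the paralogs with their partners, the stalk proteins and Rpsa, and those whose groups of 4 were apart in both readings. From each other list up to 4 genes with the smallest p in a fit could be named. Rpl3-ps1, the lists of members with many or no copies, the members called without RMN031 and the 6 printed starts fall outside that rule and were chosen after their values were seen. The ratio without Rplp0, Rpl3 and Rpl4 and the share with the copies added were not among the planned settings. Some members and other genes that the rule takes are not reported here.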

Additional observations from a re-analysis of the deposited data

Results flagged for a closer look

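For each named member and for the share and the subunit ratio, the libraries of each group of 4 were examined for 1 that lay far from the other 3. This was so in 12 of 152 groups. At a rate of 1 in 20, which assumes normally distributed values, about 7.6 would be so by chance. RMN030 lay above the other WT libraries by the description codes in Rpl23a (13.7 CPM), Rpl35a (31.8 CPM) and Rpl32 (71.0 CPM). RMN038 lay above the other KO libraries by the description codes in Rpl35a (30.8 CPM) and Rps27l (9.09 CPM), and RMN037 lay below them in Rpl3 (1093 CPM). RMN039 lay below the other KO libraries by the title codes in Rpl37a (9.68 CPM), and RMN036 above the other WT libraries by the title codes in Rpl22 (49.3 CPM). The other 4 came from Rpl3l and Rpl39l, where 1 library of a group had a few counts and the other 3 had 0. Such a group is flagged by construction, so the 12 cannot be read as an excess over 7.6. Rpl3l had 0.452 CPM in RMN039 among KO libraries by description and 0.305 CPM in RMN030 among WT libraries by title. Rpl39l had 0.181 CPM in RMN039 among KO libraries by description and 0.108 CPM in RMN031 among WT libraries by title.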

How the results depend on the processing

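The count of members called was 0 in the title and description readings under all 20 and 16 alternatives tried. In the undisputed libraries it was 0 in 9 of 10 alternatives, and leaving out each library in turn gave 0 to 6, the 6 without RMN031. With a replicate block 0 members were called by title and 0 by description, and all genes called by description numbered 174, against 296 without it; Zfp622 lost its call (edgeR adjusted p = 0.0606). The ratio of large to small subunit counts, KO minus WT by title, was -0.00981 over both runs, 0.117 within the earlier and -0.136 within the later. Without Rplp0, Rpl3 and Rpl4, KO lay below WT in both runs, and the cause was not tested. The other values of share and ratio moved by less than the larger of the 2 groups' SDs, which for the undisputed share is that of WT, 0.251. Leaving out each library in turn, the difference in share ran from -0.343 (without RMN031) to 0.0123 (without RMN030) in the undisputed libraries, from -0.0511 to 0.10 by title and from -0.217 to -0.0861 by description. The difference in ratio then ran from -0.0109 to 0.0478, from -0.0445 to 0.0247 and from -0.00321 to 0.0621. The sign of the share turned in 1 of 8 alternatives in the undisputed libraries, in 7 of 15 by title and in 0 of 13 by description, and that of the ratio in 3 of 6, 4 of 12 and 2 of 10. The count of all genes called moved by over 1.5 times in 6 of 10, 3 of 19 and 8 of 16 alternatives. DESeq2 called 305, 19 and 660 genes in the undisputed, title and description comparisons, against 117, 0 and 296 with edgeR. With no filter on low counts, 440 were called in the undisputed libraries and 1 by title. Within the earlier run alone, 57 were called by title. Leaving out each library in turn gave 263 to 629 in the undisputed libraries, the 629 without RMN031, 0 by title, and 140 (without RMN033) to 219 by description. The interaction and within-run fits were chosen with earlier results known. The undisputed comparison has 2 libraries a group, and the standard errors of members reach 0.55 there, which limits what it can call.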
